A study of Mus musculus with 3 samples.

Results

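The 7 genes Tlr2, Tlr3, Tlr4, Cd14, Ly96, Myd88 and Lbp, which serve the sensing of microbial molecules, were followed through lymph node stroma. They were taken by their symbols, which matched 7 of the 51912 genes in the count matrices, and none of them was used to sort the cells or to define a class. The cells came from lymph nodes of C57BL/6 mice carrying the CXCL13-TdTomato reporter, in which a Cxcl13-driven Cre marks B cell follicle stroma, and had been sorted as live, podoplanin-positive, TdTomato-positive, CD31-negative and CD45-negative. The libraries 2-IC replicate 1 and 2-IC replicate 2 came from mice given 2 antigen immune complexes, the first 7 days and the second 24 hours before analysis, and 1 library (1-IC) from mice given 1 complex 24 hours before. Nodes of several mice were pooled into a library, no unimmunised library was analysed here, and the short labels of the 2-IC libraries name different times although their titles are alike.

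Toll-like receptors sense microbial molecules. TLR4 recognises lipopolysaccharide together with its partner MD-2, the product of Ly96, after the serum protein LBP has passed lipopolysaccharide to CD14; TLR2 recognises bacterial lipoproteins at the cell surface, and TLR3 recognises double-stranded RNA inside endosomes. TLR2 and TLR4 can signal through the adaptor MyD88 towards NF-kappaB. TLR3 signals without MyD88, through the adaptor TRIF. On follicular dendritic cells (FDCs) TLR4 is known as a receptor that can activate the network.

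The libraries held 3790, 1029 and 667 barcodes with 20607903, 12788101 and 3766526 UMIs (unique molecular identifiers, each standing for 1 captured RNA molecule) in the order 2-IC replicate 1, 2-IC replicate 2 and 1-IC. Barcodes with fewer than 200 genes or over 10% mitochondrial UMIs were left out. Stromal barcodes had at least 3 UMIs of 8 stromal genes, more of these than of 16 immune genes, and none of the 13 genes by which the study removed contaminating cells. Of these, 228 barcodes (145, 34 and 49 per library) held a UMI of the complement receptor gene Cr2, taken as the FDC marker. Another 1952 (1351, 347 and 254) did not and are called other stroma. In addition, 1226 barcodes (819, 178 and 229) were immune. By whether lymphoid or myeloid genes had more UMIs, 1098 of them were lymphoid and 114 myeloid, so immune values mostly describe lymphoid barcodes. FDC markers fitted the Cr2-positive class: Fcer2a, which encodes CD23, reached 199 ± 25.4 CPM (counts of a gene per 1e+06 UMIs summed over a class in a library; SD, n = 3 libraries) against 2.07 ± 1.67 in other stroma, and Madcam1, Clu and Coch were higher as well. Cr2 and Fcer2a were not particular to stroma. Lymphoid barcodes held 122 ± 55.7 CPM of Cr2, and immune barcodes 270 ± 53.1 of Fcer2a. Coch was at 215 ± 50.3 in Cr2-positive and 6.70 ± 0.21 in immune barcodes. Between the 2-IC libraries 76 barcodes were shared, and in 75 of them the shallower copy had under 5% of the UMIs of the deeper one.

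All 7 genes were detected, in barcodes that ranged from 40 for Lbp to 1435 for Ly96. Over the 3 libraries Ly96 had 2756 UMIs in 1435 barcodes, Cd14 had 1224 in 786, Myd88 1138 in 875, Tlr2 791 in 616, Tlr3 443 in 350, Tlr4 279 in 245 and Lbp only 62 in 40. Capture at the 3' end can differ between genes, so levels were compared between classes and never between genes.

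Ly96 and Cd14 were higher in stromal than in lymphoid barcodes. Tlr2 was higher in other stroma than in immune barcodes, which are mostly lymphoid. It was also higher there than in Cr2-positive barcodes, by a call lost in 6 of 12 alternative fits. Tlr3 had its highest CPM in myeloid barcodes. Of its 443 UMIs, 212 lay in 177 barcodes of other stroma and 36 in 13 myeloid barcodes. Myd88 was spread over all classes. Tlr4 was scarce in all of them and reached 62, 53 and 6 UMIs in other stroma, whereas Lbp, and Tlr4 in Cr2-positive barcodes, stayed near the limit of detection. Levels are given in CPM with 95% exact Poisson intervals that cover counting error only.

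**Figure D1:**
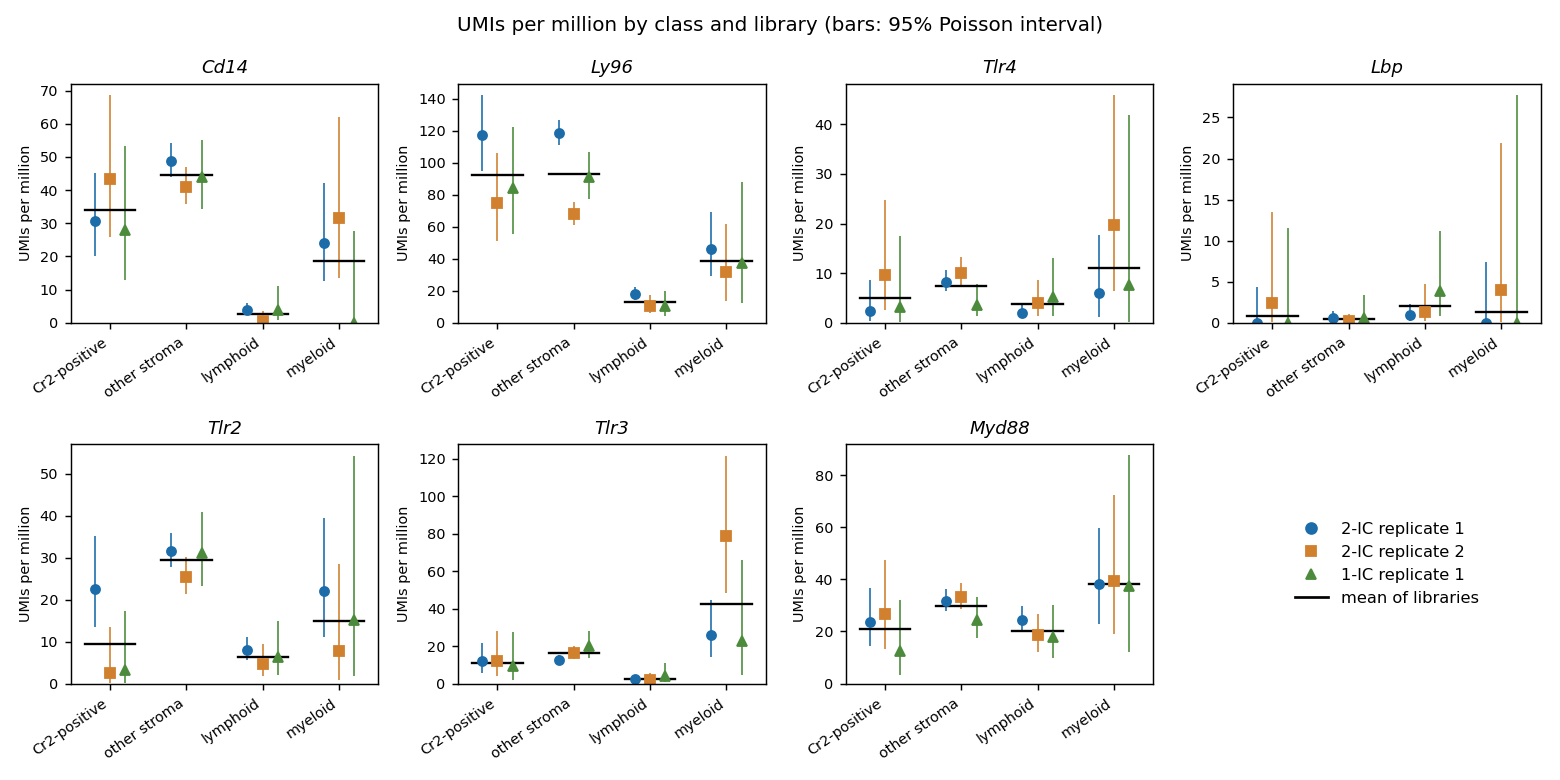
CPM of each gene (vertical axis, linear, separate scale per gene) in Cr2-positive barcodes, other stroma, lymphoid and myeloid barcodes; points are the 3 libraries with 95% Poisson intervals and black lines their means. Cd14 and Ly96 sit higher in both stromal classes than in lymphoid barcodes in every library, and Tlr3 is highest in the myeloid barcodes of 2-IC replicate 2.

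Ly96, at chr1:16688051-16709611 on the plus strand (GRCm38), is needed for TLR4 to bind lipopolysaccharide. In Cr2-positive barcodes it reached 117, 74.8 and 84.3 CPM in 2-IC replicate 1, 2-IC replicate 2 and 1-IC, and in other stroma 119, 68.3 and 91.2. The order of the libraries was the same in both classes, and the class values lay closer to each other than the libraries did. In immune barcodes Ly96 was at 20.4, 13.8 and 14.2, so every immune value lay under every stromal value.

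Cd14, at chr18:36725067-36726798 on the minus strand, encodes the co-receptor that hands lipopolysaccharide to TLR4 and is best known from monocytes and macrophages. It was at 30.8, 43.4 and 28.1 CPM in Cr2-positive barcodes and at 48.8, 41.0 and 43.8 in other stroma, and the classes overlapped. Immune barcodes held 5.75, 4.97 and 3.27. Even the myeloid barcodes, with 24.1, 31.5 and 0, stood below other stroma in every library, with overlapping intervals in 2-IC replicate 2 (13.6 to 62.0 against 35.7 to 46.9). All 8 Cd14 UMIs of the latter library's myeloid barcodes came from 1 of 17 barcodes. In the 1-IC myeloid barcodes the count of 0 came from 28 barcodes and had an interval up to 27.7. The median share of UMIs from Malat1, a nuclear RNA, was 0.74%, 0.25% and 0.07% in myeloid barcodes. In other stroma it was 3.14%, 5.97% and 8.24%, and a part of this in the Cd14 difference was not tested. The myeloid barcodes were left in a CD45-negative sort, so they are no sample of all myeloid cells of the node. The myeloid marker Tyrobp lay at 6.36 ± 3.13 CPM in other stroma against 1163 ± 269 in myeloid barcodes (n = 3), and the summed myeloid list was at 42.2 ± 24.9 in other stroma. Cr2-positive barcodes held more of both, with Tyrobp at 12.9 ± 11.2 and the list at 110 ± 52.9. A part of myeloid RNA in the stromal Cd14 values was not tested.

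Tlr2, at chr3:83836272-83841767 on the minus strand, differed between the stromal classes. Other stroma had 31.6, 25.4 and 31.2 CPM, whereas Cr2-positive barcodes had 22.5, 2.41 and 3.12. The Cr2-positive values rest on 19, 1 and 1 UMIs, so 2-IC replicate 1 supplied nearly all of them, and its interval of 13.5 to 35.1 reached the level of other stroma. The upper bounds in the other 2 libraries, 13.4 and 17.4, lay below it. Immune barcodes had 9.32, 4.97 and 7.62, below other stroma in every library.

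Tlr3, at chr8:45395665-45411080 on the minus strand, was at 11.8, 12.1 and 9.36 CPM in Cr2-positive barcodes and at 12.5, 16.4 and 19.8 in other stroma. Lymphoid barcodes held 2.22, 1.98 and 3.83. Myeloid barcodes held 26.1, 78.7 and 22.6, and 12 of the 20 UMIs in 2-IC replicate 2 came from a single barcode. The 1-IC value rests on 3 UMIs, and its interval of 4.65 to 65.9 covered that of other stroma (13.6 to 27.8). In 2-IC replicate 1 the intervals overlapped as well (13.9 to 44.7 against 10.1 to 15.3). Myeloid barcodes were not tested against other stroma. Gm45542 overlaps Tlr3 on the opposite strand.

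Myd88, at chr9:119335934-119341411 on the minus strand, encodes the adaptor that most Toll-like receptors share. It stood at 20.9 ± 7.43 CPM in Cr2-positive barcodes, 30.0 ± 4.69 in other stroma, 20.3 ± 3.71 in lymphoid and 38.4 ± 0.89 in myeloid barcodes (SD, n = 3). The myeloid values rest on 19, 10 and 5 UMIs, so their SD lies below the counting error. Slc22a14 and Acaa1a overlap the gene, 1 of them on the same strand, so some of its reads may have been left uncounted or shared.

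Tlr4, at chr4:66827584-66930284 on the plus strand, is the lipopolysaccharide receptor itself. It gave 2, 4 and 1 UMIs in the Cr2-positive barcodes of the 3 libraries, or 2.37, 9.65 and 3.12 CPM, against 8.31, 10.1 and 3.60 in other stroma and 2.38, 6.07 and 5.45 in immune barcodes. The intervals of Cr2-positive barcodes and other stroma overlapped in every library. Myeloid barcodes had 3, 5 and 1 UMIs.

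Lbp, at chr2:158306493-158332852 on the plus strand, encodes the secreted carrier of lipopolysaccharide, mainly a liver product. It gave 0, 1 and 0 UMIs in Cr2-positive barcodes and 4, 1 and 1 in other stroma, with intervals up to 4.36, 13.4 and 11.5 CPM for the former. Lymphoid barcodes gave 4, 2 and 3 UMIs, at 0.89, 1.32 and 3.83 CPM, so that other stroma, at 0.54, 0.19 and 0.60, lay below cells not known to make the protein in every library. The 1 Cr2-positive UMI, at 2.41 CPM, stood above the lymphoid value of its library, with overlapping intervals (0.061 to 13.4 against 0.16 to 4.77).

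At equal depth Ly96 and Cd14 again stood higher in both stromal classes than in immune barcodes. When each barcode was thinned to 1000 UMIs, with 9 Cr2-positive, 88 other stromal and 49 immune barcodes left out as too shallow, Ly96 was detected in 17 of 219 Cr2-positive, 165 of 1864 other stromal and 20 of 1177 immune barcodes. Cd14 was detected in 3, 68 and 4 of them, and Tlr2 in 5, 59 and 9. For Tlr3, Tlr4 and Lbp the single draw left 0 of 219 Cr2-positive barcodes, which allows a share of up to 1.37% with a UMI at this depth. The draw also left Tlr3 in 0 of 95 myeloid barcodes, which allows up to 3.16%, and in 26 of 1864 of other stroma. The higher myeloid CPM of Tlr3 was thus not seen as a higher share in this draw. With all UMIs Tlr3 was found in 8.03 ± 3.23% of Cr2-positive barcodes (SD, n = 3). It was in 13 of 114 myeloid and in 177 of 1952 other stromal barcodes. The draw loses most molecules of genes this scarce, so shares expected over all draws of 1000 UMIs are also given.

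Expected shares for Ly96 were 10.6%, 6.11% and 7.21% in Cr2-positive barcodes, 9.64%, 7.25% and 7.56% in other stroma, and 1.60%, 1.01% and 0.88% in immune barcodes, in the same library order. Those for Cd14 were 2.90%, 3.07% and 2.33%, then 4.28%, 3.44% and 4.3%, and in immune barcodes 0.36%, 0.25% and 0.29%. For Tlr2 the Cr2-positive shares were 3.03%, 0.10% and 0.22% and those of other stroma 3.21%, 2.32% and 3.38%. Thus stromal detection exceeded immune detection in every library for Ly96 and Cd14, and for Tlr2 the Cr2-positive share of 2-IC replicate 1 stood near that of other stroma while the other 2 libraries stood far lower. Tlr3 followed with 0.84 ± 0.18% in Cr2-positive barcodes, 1.43 ± 0.24% in other stroma and 0.50 ± 0.16% in immune barcodes, Myd88 with 1.95 ± 1.06%, 3.17 ± 0.25% and 1.99 ± 0.20%, and Tlr4 with 0.48 ± 0.36%, 0.78 ± 0.34% and 0.54 ± 0.29% (SD, n = 3).

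**Figure D2:**
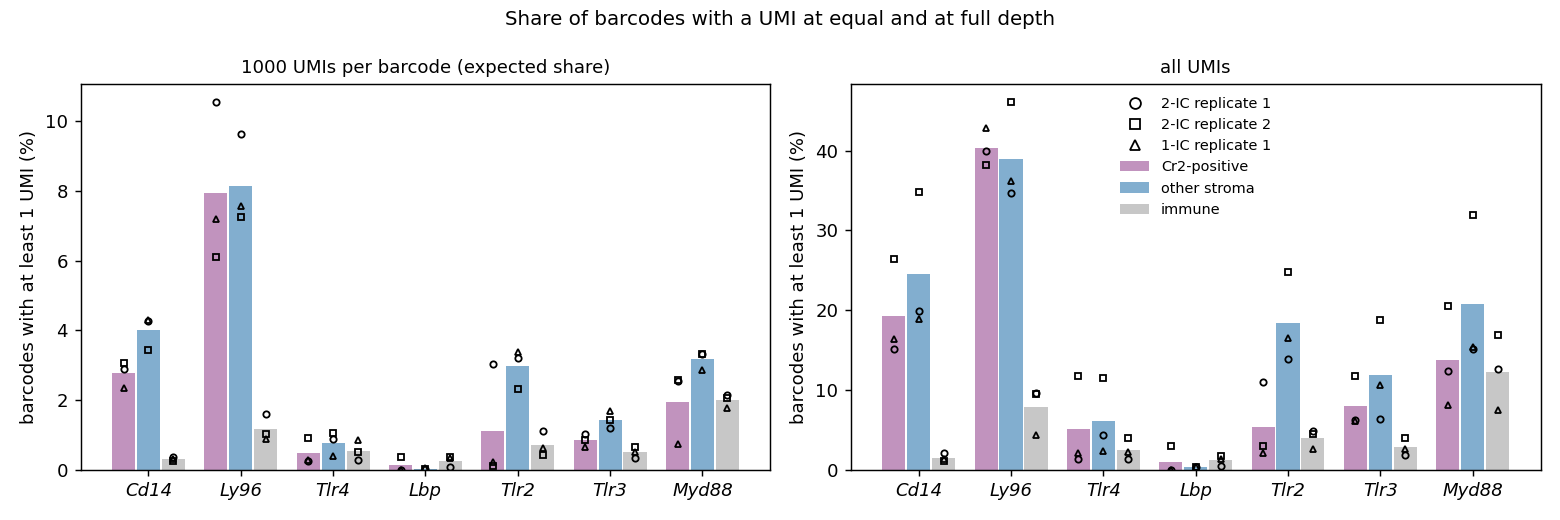
Percent of barcodes with at least 1 UMI of each gene at an equal depth of 1000 UMIs (left, expected over all draws) and with all UMIs (right); bars are means of 3 libraries and symbols the libraries. The share for Ly96 in both stromal classes is about equal and stands above that in immune barcodes at either depth.

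With all UMIs, Ly96 was found in 40.4 ± 2.33% of Cr2-positive barcodes, 39.0 ± 6.19% of other stroma and 7.85 ± 3.02% of immune barcodes. Cd14 was found in 19.3 ± 6.22%, 24.5 ± 8.96% and 1.5 ± 0.50%, and Tlr2 in 5.34 ± 4.95%, 18.4 ± 5.70% and 4.0 ± 1.21% (SD, n = 3). Lymphoid barcodes, which are not known to use CD14, gave a Cd14 share of 1.21 ± 0.49% at median depths of 3800.5, 7037 and 3386.5 UMIs, beside 4723, 15109 and 6404.5 in other stroma. For Lbp the lymphoid share was 1.11 ± 0.50% and that of other stroma 0.33 ± 0.06%, so the stromal share is not read as expression. Free RNA was not measured. Pairs of the genes were seldom caught together. At 2000 UMIs 20 of 1715 other stromal barcodes held both Ly96 and Cd14, where the product of the single shares is 23.4, and 2 held both Cd14 and Tlr2, where it is 8.08. Other pairs lay above the product: 25 held Ly96 and Tlr2 (17.04) and 7 held Ly96 and Tlr4 (4.59), and 5 of 196 Cr2-positive barcodes held Ly96 and Cd14 (2.09). None of these differences was tested.

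The first comparison set Cr2-positive barcodes against other stroma. Other stroma can also hold FDCs whose Cr2 RNA was not caught, and dark zone FDCs, which the paper assigned by low Cr2. It is therefore not a comparison of all FDCs with other reticular cells. Class sums were compared with edgeR's quasi-likelihood test with the library as a block, and p-values were adjusted by the Benjamini-Hochberg method over 11276 genes. Of all genes 12.4% passed the threshold of 0.05, 7.14% higher and 5.24% lower in Cr2-positive barcodes. Among the 6 members tested, Lbp having failed the filter on low counts, 1 passed. Tlr2 was lower in Cr2-positive barcodes by a log2 fold change of -1.38 (SE 0.42, adjusted p = 0.0490, lower in 3 of 3 libraries). The call was lost in 6 of 12 alternatives. Among them were the omission of the 1-IC library (adjusted p = 0.264) or of 2-IC replicate 2 (0.134) and the fit without the library block (0.183). It was also lost when barcodes found in 2 libraries were removed (0.0513, edgeR). The estimate ran from -3.37 to -0.96 over the 12 alternatives.

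The other 5 did not pass. The log2 fold change was -0.04 for Ly96 (SE 0.17, adjusted p = 0.912), -0.45 for Cd14 (SE 0.25, 0.289), -0.54 for Myd88 (SE 0.28, 0.251), -0.44 for Tlr3 (SE 0.39, 0.553) and -0.81 for Tlr4 (SE 0.61, 0.464). None of them was called in any alternative. The median over the 6 was -0.50, beside -0.04 over all genes tested.

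The second comparison set immune barcodes against other stroma, and 62.2% of all genes differed, 28.6% higher and 33.6% lower. Of the 6 members tested 4 fell and 0 rose, with a median log2 fold change of -1.33 beside -0.05 over all genes. Cd14 fell by 2.92 on the log2 scale (SE 0.25, edgeR adjusted p = 3.9e-07), Ly96 by 2.29 (SE 0.17, 1.1e-07) and Tlr2 by 1.80 (SE 0.33, 0.00031), each lower in 3 of 3 libraries and each called in every alternative that gave a value. Tlr3 fell by 0.86 (SE 0.30, adjusted p = 0.0219), a call lost without the 1-IC library (0.0982), without 2-IC replicate 1 (0.367), without the block (0.0586) and with DESeq2 (0.103). Myd88 at -0.21 (SE 0.21, 0.403) and Tlr4 at -0.81 (SE 0.41, 0.102) did not pass.

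Stromal RNA was found in the immune barcodes too. The summed stromal list stood at 774 ± 358 CPM in them. At least 1 UMI of it was held by 88.4%, 88.2% and 26.2% of immune barcodes, in the library order used above. Those without such a UMI thus came mostly from 1-IC, and they were not matched in depth. In immune barcodes with no such UMI the log2 fold change against other stroma was -5.28 for Cd14, -3.46 for Ly96 and -2.21 for Tlr2, each further from 0 than over all immune barcodes.

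**Figure D3:**
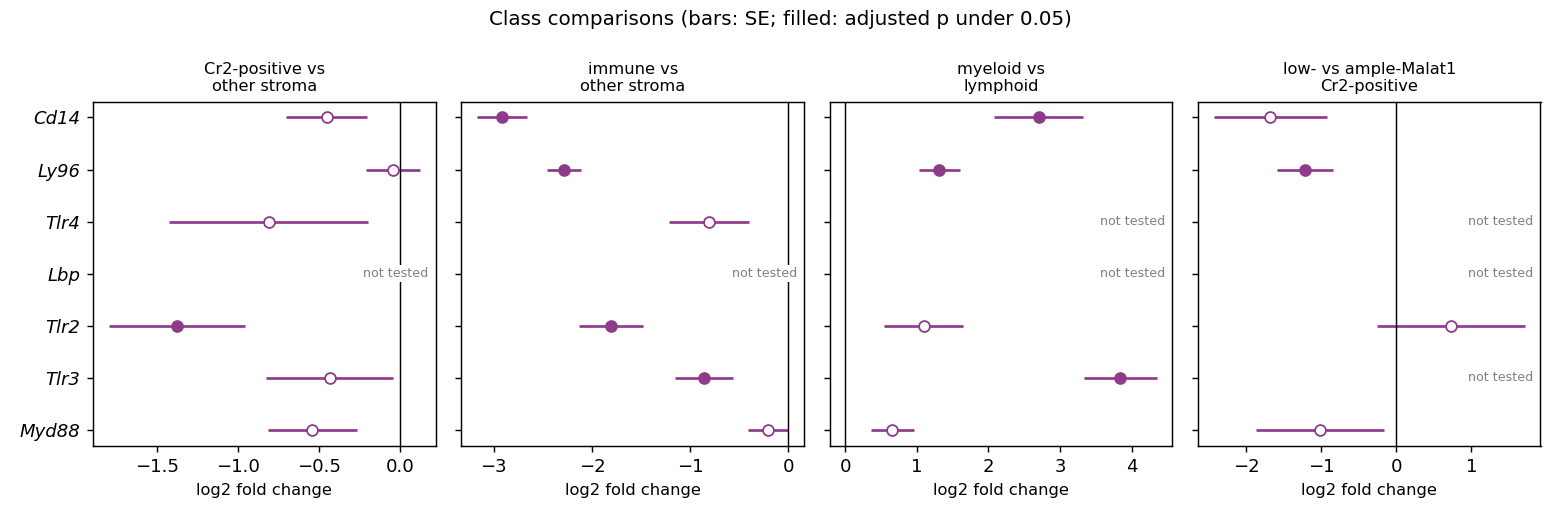
Log2 fold change (horizontal axis) of each gene in 4 class comparisons by edgeR, with SE bars; filled points have an adjusted p under 0.05 and genes removed by the filter on low counts are marked as not tested. Tlr2 is the only filled point between Cr2-positive barcodes and other stroma.

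Among immune barcodes, myeloid were set against lymphoid ones in a second fit, in which 19.9% of 9549 genes passed, 10.9% higher in myeloid barcodes. Of the calls 54.9% were higher, and 68.2% when libraries were scaled by total counts alone. Of 5 members tested 3 rose, with a median of 1.32 beside -0.05 over all genes. Tlr3 rose by a log2 fold change of 3.84 (SE 0.51, edgeR adjusted p = 6.1e-05), Cd14 by 2.70 (SE 0.62, 0.0052, higher in 2 of 3 libraries) and Ly96 by 1.32 (SE 0.28, 0.0034). Without 2-IC replicate 1, which held 69 of the 114 myeloid barcodes, Cd14 (adjusted p = 0.0508) and Ly96 (0.0642) were no longer called. The summed stromal list was at 1159 ± 975.3 CPM in myeloid and 727 ± 309 in lymphoid barcodes, and its part in these rises could not be tested: without barcodes holding a UMI of the list, 1 myeloid sum was left, of 16 barcodes of 1-IC with 0 UMIs of Cd14, Ly96 and Tlr2 and 1 of Tlr3. In that fit no member was called, and the values fitted for Cd14 (-4.00, adjusted p = 0.931) and Ly96 (-6.87, 0.708, edgeR) had the opposite sign. Tlr2 at 1.10 (SE 0.55, 0.184) and Myd88 at 0.66 (SE 0.30, 0.141) did not pass, and Tlr4 and Lbp were not tested.

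The myeloid Tlr3 signal was concentrated in few barcodes. Xcr1 and Clec9a, which mark the conventional dendritic cells that cross-present antigen and are known for TLR3, were looked at after these values had been seen. The 14 myeloid barcodes with a UMI of either held 28 Tlr3 UMIs in 6 barcodes, and the 100 without held 8 in 7 barcodes. In CPM, Tlr3 stood at 137, 145 and 62.4 in the former and at 9.26, 15.3 and 17.1 in the latter, in the library order used above, from 5, 5 and 4 against 64, 12 and 24 barcodes. The 1-IC value of the former rests on 1 UMI, and median depths were 2752, 29337 and 3916 UMIs against 4922.5, 5790.5 and 2310. Cd14, Ly96 and Tlr2 had 0 UMIs in the 14 and were found in 7, 21 and 10 of the 100, and with so few barcodes a difference could not be shown.

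Within the stroma, levels were followed over gates that hold a UMI of exactly 1 of 4 genes. Tnfsf11 was taken for interfollicular, Fmod for T-B border, Inmt for medullary and Madcam1 for marginal reticular cells. The paper reports Tnfsf11 in marginal cells too, so the Tnfsf11 gate can hold both, and it names its medullary clusters by Nr4a1. Of the 1952 barcodes of other stroma, 643 held several of the 4 genes and 395 none, and these lie in no gate. Of the 3 gates with at least 5 barcodes in every library, the Tnfsf11 gate had the highest Ly96, with 183 (interval 152 to 219), 194 (147 to 252) and 104 (67.4 to 154) CPM, and the Inmt gate was lower, with 87.7 (76.0 to 101), 48.4 (36.5 to 63.0) and 70.1 (48.5 to 97.9). The intervals were apart in both 2-IC libraries and overlapped in 1-IC. The Madcam1 gate, of 17, 4 and 6 barcodes, had 201, 28.7 and 186 CPM from 16, 1 and 6 Ly96 UMIs.

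Tlr2 stood at 33.3 ± 9.80 in the Inmt gate, at 21.4, 38.6 and 44.5 in the Fmod gate and at 33.03, 10.4 and 16.7 in the Tnfsf11 gate, and these overlapped. Tlr3 ran from 8.59 ± 1.80 in the Tnfsf11 gate through 15.1 ± 4.42 in the Inmt gate to 28.1 ± 14.2 in the Fmod gate, where the counts were 9, 8 and 3 UMIs. Cd14 was at 66.4, 48.9 and 0 in the Fmod gate, where the 0 came from 10 barcodes of 1-IC and had an interval up to 54.8. It was at 52.2 ± 16.3 in the Tnfsf11 gate and 39.6 ± 8.89 in the Inmt gate. In both 2-IC libraries the Fmod value was the highest of these gates. Myd88 in the Inmt gate was at 34.8 (27.6 to 43.4), 37.0 (26.6 to 50.0) and 37.1 (22.0 to 58.6), beside 19.2 ± 11.5 in the Tnfsf11 gate. The Inmt values lay closer together than their counting error, so their likeness is not read as stability. Values with ± are means and SD over 3 libraries, and differences between gates were not tested.

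**Figure D4:**
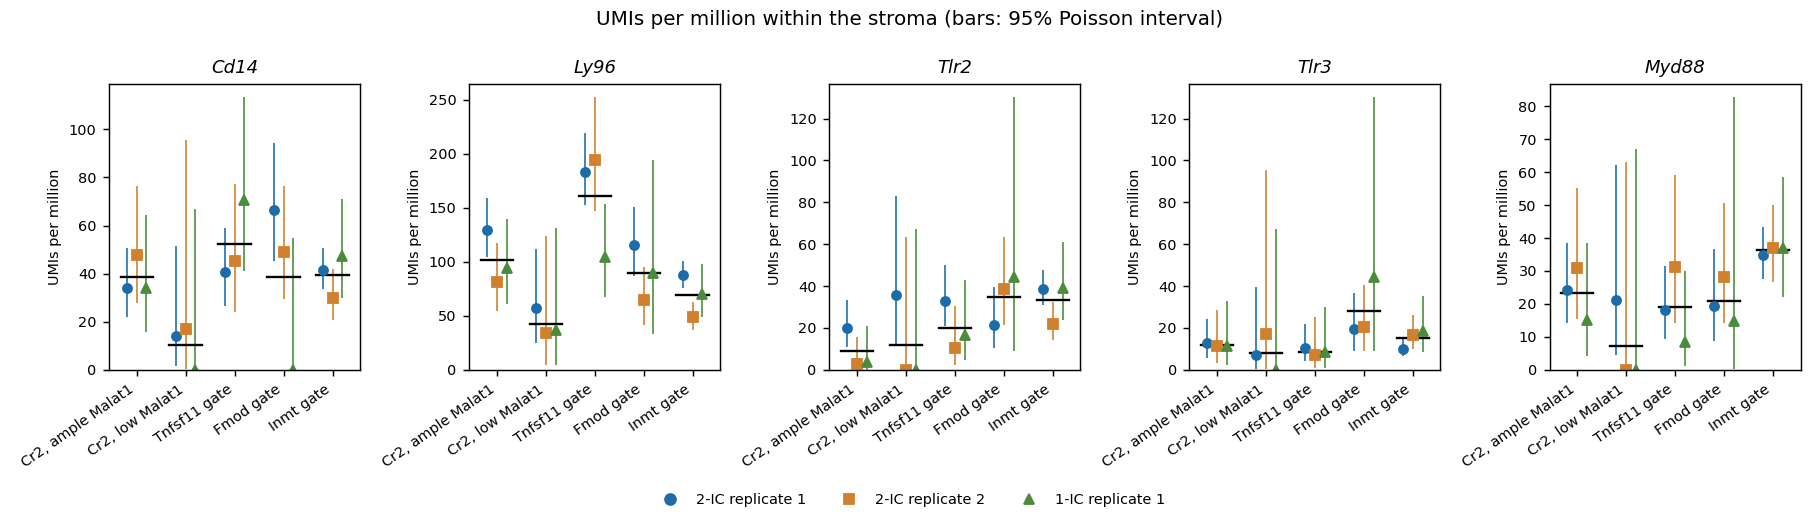
CPM of 5 genes in Cr2-positive barcodes with ample or little Malat1 and in the Tnfsf11, Fmod and Inmt gates of other stroma; points are libraries with 95% Poisson intervals and black lines their means. Ly96 stands highest in the Tnfsf11 gate of both 2-IC libraries, at 183 and 194.

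Cr2-positive barcodes divide by Malat1, a nuclear RNA, into 166 with at least 1% of their UMIs from it and 62 with less. Ly96 was at 129, 81.5 and 94.2 CPM in the former and at 56.8, 34.3 and 36.3 in the latter, from 8, 2 and 2 UMIs. In a separate fit 13.2% of 5690 genes differed (6.03% higher, 7.19% lower in barcodes with little Malat1), and of 4 members tested 1 fell and 0 rose. Ly96 fell by 1.22 on the log2 scale (SE 0.38, edgeR adjusted p = 0.0441, lower in 3 of 3 libraries). The call was lost in 7 of 12 alternatives, among them the omission of the 1-IC library (0.169), of 2-IC replicate 1 (0.138) or of 2-IC replicate 2 (0.133) and the fit without the block (0.153). The differences were -1.69 for Cd14 (SE 0.75, adjusted p = 0.149), -1.02 for Myd88 (SE 0.85, 0.452) and 0.73 for Tlr2 (SE 0.98, 0.665).

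The number of immune complexes could not be tested as a condition, since 1-IC is 1 library. For Cd14 the 1-IC value of 43.8 (interval 34.3 to 55.1) in other stroma lay between those of the 2-IC libraries, and so did Ly96 at 91.2 (77.3 to 107). Tlr3 at 19.8 (13.6 to 27.8) was above both and Tlr4 at 3.60 (1.32 to 7.84) below both, with intervals that overlapped those of the 2-IC libraries. A fit of the difference between the 1-IC and 2-IC libraries in each class contrast, with 1 library on one side, called 0 of 11276 genes for Cr2-positive and 0 for immune barcodes (edgeR), with 363 and 330 at an unadjusted p under 0.05. It does not show that the members responded alike.

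Other genes of the pathway were taken from lists of 56 receptors, adaptors, kinases, transcription factors and inhibitors, of which 46 could be tested between Cr2-positive barcodes and other stroma. There 3 rose and 3 fell, a share near the 12.4% of all genes, with a median log2 fold change of 0.06. Among receptors Tlr1, the partner of TLR2 on lipoproteins, rose by 2.72 on the log2 scale (SE 0.57, edgeR adjusted p = 0.0065), from 1.05 ± 0.39 to 8.53 ± 3.83 CPM. In the Cr2-positive sums 3 UMIs correspond to 3.55, 7.24 and 9.36 CPM, so the Tlr1 level there rests on few UMIs. Relb, a factor of the noncanonical NF-kappaB pathway, rose from 86.6 ± 7.66 to 164 ± 10.7, and Tnfaip3, which encodes the NF-kappaB inhibitor A20, from 125 ± 18.4 to 279 ± 66.1 (adjusted p = 0.0034 and 0.0067). The immediate early genes Jun and Fos fell by 0.71 and 0.92 and Zfp36, which encodes an mRNA decay factor, fell by 0.86. Without the library block Tlr1 alone of the 6 was called. Without the 1-IC library Tlr1 (adjusted p = 0.0802), Jun (0.0904), Fos (0.0540) and Zfp36 (0.0512) were not, nor was Tlr1 without 2-IC replicate 1 (0.0991, edgeR). Tlr1 stood at 15.3 ± 0.99 CPM in immune barcodes, where the summed B cell list was at 3485 ± 1001. That list was at 8.45 ± 1.92 in Cr2-positive barcodes and at 3.44 ± 3.76 in other stroma. Both values are held low by the gate, which removed barcodes with a UMI of Cd79a or Cd79b, genes of this list. The Cr2 gate can itself select for B cell RNA, since lymphoid barcodes hold Cr2 too. A part of B cell RNA in the Tlr1 rise was not tested. Of 15 kinases and ubiquitin ligases 0 were called in either direction.

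In immune barcodes 12 of the 46 rose and 9 fell, below the 62.2% of all genes that differed. Of 12 other receptors listed, only 4 passed the filter on low counts, and these 4 rose. Cd180 rose by 5.99 and its partner Ly86 by 5.81, which form a B cell complex related to TLR4 and MD-2. Tlr7 rose by 5.23 and Tlr1 by 3.88 on the log2 scale. The filter can keep a gene through the immune sums alone, so the common direction of the 4 is not read as a result on receptors. Sigirr, an inhibitory receptor of the same family, rose by 5.25. The largest falls were Jun by 2.63, Fos by 2.25 and Nfkbiz, a nuclear inhibitor of NF-kappaB, by 2.18. Ly96 and Ly86, which encode related MD proteins, went in opposite directions, and Ly86 had 5.50 ± 2.12 CPM in other stroma and 267 ± 89.2 in immune barcodes.

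**Figure D5:**
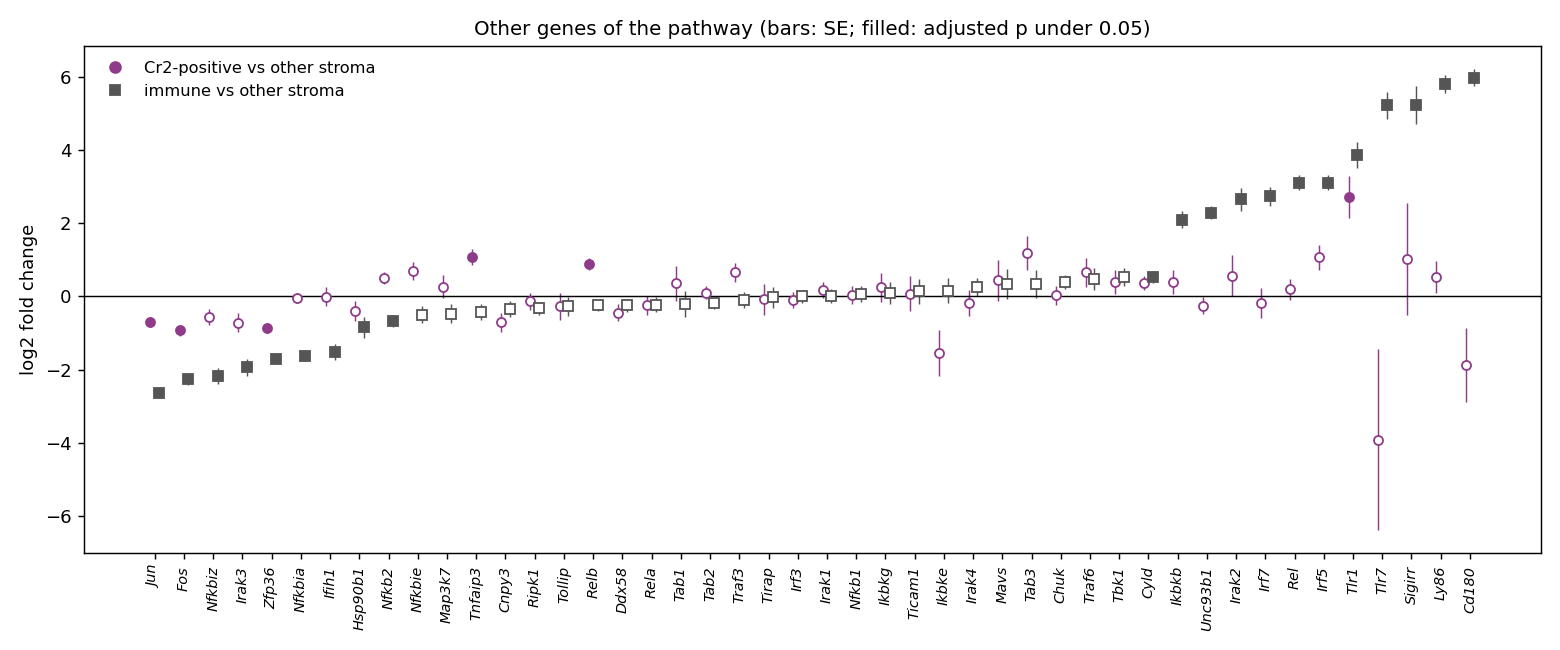
Log2 fold change (vertical axis) of 46 other pathway genes in Cr2-positive barcodes (circles) and immune barcodes (squares), each against other stroma, with SE bars, ordered by the immune comparison; filled symbols have an adjusted p under 0.05. Tlr1 is filled above 0 in both, and both comparisons share the other stromal sums.

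Between myeloid and lymphoid barcodes 8 of 42 listed genes rose and 3 fell, beside 19.9% of all genes called. Tlr13, a sensor of bacterial ribosomal RNA, had 17.4 ± 4.5 CPM in myeloid barcodes and 0 in the lymphoid sums of all 3 libraries. In the myeloid sums 3 UMIs correspond to 6.03, 11.8 and 22.6 CPM, so this level rests on few UMIs. Tlr13 could not pass the filter on low counts through the lymphoid sums, so its direction is not read as a result. Its call was lost in 1 of the 6 alternatives that gave a value. The RNA sensor Ifih1 rose by 2.31 and Relb by 1.82 on the log2 scale, while Cd180 fell by 1.92, Ddx58 by 1.34 and Rel by 0.80. The last 2 calls rest on the libraries: Ddx58 was lost without 1-IC (edgeR adjusted p = 0.198) or 2-IC replicate 2 (0.171), and Rel without 1-IC (0.218) or 2-IC replicate 1 (0.109). Between Cr2-positive barcodes with little and with ample Malat1, 0 of 26 rose and 5 fell, beside 13.2% of all genes called and 7.19% lower. Jun fell by 2.98, Fos by 2.36, Tnfaip3 by 1.94, Nfkbiz by 1.40 and Nfkbia by 1.26 on the log2 scale. Without 1-IC Fos (adjusted p = 0.0822) and Nfkbiz (0.0788) were not called, and without 2-IC replicate 2 Fos (0.107), Nfkbiz (0.267) and Tnfaip3 (0.0673, edgeR) were not. None of the 5 passed without the library block.

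The genes most alike in pattern were sought among 11406 genes by Pearson correlation of log2(CPM + 1) over 23 class sums, which share libraries and depth and are no independent samples. For Cd14 they were Agmo (r = 0.89) and Ctbp2 (0.89), for Ly96 Cpd (0.90) and Dsc3 (0.90), for Tlr2 Pink1 (0.91) and Ccdc102a (0.91), and for Myd88 Nufip2 (0.93) and Uggt1 (0.92). Tlr3 was most like Acp2 (0.86) and Zbtb46 (0.82), the latter a transcription factor of conventional dendritic cells, and Tlr4 most like Strn (0.86) and Tubgcp3 (0.86). For Lbp, Gm44510 (0.83) and BC064078 (0.71) came first, over sums most of which held 0 to 4 of its UMIs.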

How the data were processed

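The authors sequenced 3 libraries of sorted cells with the 10x Chromium 3' chemistry and aligned them to GRCm38 with Cell Ranger (version 5.0.0 per the file headers). The deposited matrices hold UMI counts per gene and barcode, unnormalized, and no cell annotation. Counting by UMI removes PCR duplicates, and only RNA caught near the 3' end is seen.

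Classes were gated as described in the report, in Python 3.11.15 with numpy 2.4.6, scipy 1.17.1 and pandas 2.3.3. Counts were summed per library and class (at least 5 barcodes) and tested with edgeR 4.0.16 in R 4.3.3 (glmQLFit, glmQLFTest, TMM, filterByExpr, library as block since its classes come from 1 suspension). The fits were also run on counts simulated from a pooled profile, with no library effect. Such counts cannot show how the fits handle the differences between these libraries. DESeq2 1.42.0, other scalings and filters, thinning, Scrublet doublets (scanpy 1.11.5), which numbered 0, 3 and 16 and were otherwise kept, and leaving out each library were alternatives. The removal of shared barcodes and the alternatives for pathway genes were added after seeing the data. Shares have exact binomial and levels exact Poisson intervals (95%). Gene positions come from GENCODE M21. Named were all 7 members, the 3 pathway genes with the largest rise and fall in a comparison, members of group counts of 5 or fewer, and for each member the 2 genes most alike in pattern. Xcr1, Clec9a and Pi16 were chosen after their values were seen. The genes, lists and the Malat1 limit were chosen with earlier results of these data known. Per the study's methods the samples came from independent experiments with nodes of several mice pooled, though no label ties a library to an experiment. The block takes out differences in level between libraries, so p-values measure how class differences vary between these pools.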

Additional observations from a re-analysis of the deposited data

Results flagged for a closer look

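Lbp, nearly undetected in the classes compared, was found in stromal barcodes that the contaminant genes had removed. These 1075 barcodes held 43 of the 62 Lbp UMIs, in 21 barcodes, against 6 in the 1952 barcodes of other stroma. Lbp stood there at 3.09 CPM in 2-IC replicate 1 (95% Poisson interval 1.89 to 4.77) and at 4.78 in 2-IC replicate 2 (2.96 to 7.31), above the upper bounds of 1.37 and 1.06 in other stroma. In 2-IC replicate 2, 10 of the 21 UMIs came from 1 barcode, and without it 11 UMIs (2.52 CPM, 1.26 to 4.51) still lay above that bound, as did 17 UMIs in 2-IC replicate 1 without its highest barcode (2.63, 1.53 to 4.22). The 1-IC library had 2 UMIs (2.45 CPM, 0.30 to 8.84) and did not separate from other stroma. Lymphoid barcodes had intervals of 0.24 to 2.27 CPM in 2-IC replicate 1 and 0.16 to 4.77 in 2-IC replicate 2. These overlapped the intervals of the removed stroma, with and without its highest barcode, so it did not separate from the lymphoid level. Of the 1075 barcodes, 59 with at least 5 UMIs of Ly6c1, an endothelial and stromal surface gene that is itself among the 13, held 23 of the 43 Lbp UMIs in 7 barcodes. Of these UMIs, 15 came from 4 barcodes of 2-IC replicate 2 that also held another of the 13 genes. The 39 barcodes of that library with Ly6c1 as the only such gene held 0. In 2-IC replicate 1, 5 came from 2 barcodes with Ly6c1 only and 3 from 1 barcode with another of the 13. Of the 59, 12 had a UMI of Pi16, a gene of adventitial fibroblasts, beside 27 of the 1075. The endothelial genes Cldn5, Egfl7 or Lyve1 had a UMI in 5 of the 59, beside 79 of the 1075. The cell identity of these barcodes was not tested.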

How the results depend on the processing

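Of the log2 fold changes of the 7 genes under alternatives, 212 kept their direction and side of the threshold, 21 lost their call and 7 reversed. Reversed were Cd14 at -4.00 (edgeR adjusted p = 0.931), Ly96 at -6.87 (0.708) and Tlr2 at -6.47 (0.787), with Nfkbia at -0.44 and Zfp36 at -0.55, myeloid against lymphoid, in immune barcodes without stromal list UMIs, where a single myeloid sum was left. There Tlr3 stood at 2.42 (0.611). Uncalled values that crossed 0 were Ly96 against other stroma without TMM (0.0026) and with at least 2 Cr2 UMIs (0.0139), Myd88 in immune barcodes without 2-IC replicate 2 (-0.262 to 0.0534 with a library left out) and Myd88 in barcodes with little Malat1 without the contaminant filter (0.0785). Of the fold changes of called pathway genes, recomputed after seeing the data, 450 kept their call, 74 lost it and 2 reversed. Tlr2 lost its call against other stroma also without TMM (0.0528) and without Scrublet doublets (0.0620). Between Cr2-positive barcodes and other stroma 1396 genes were called, 668 with no replicate block, 485 after thinning and 636 to 1361 with a library left out, 636 of them without 1-IC. For immune barcodes 7012 genes became 2518 after thinning and 4308 in those without stromal list UMIs. For myeloid against lymphoid barcodes 1904 became 569 and 333 under these, and 1142 to 1828 with a library left out, 1184 without 1-IC and 1142 without 2-IC replicate 1. For barcodes with little Malat1 752 became 203 with no replicate block, 159 after thinning, 275 without the contaminant filter and 297 to 411 with a library left out. Thinning left fewer genes to test (4099 for the first 2). Ly96 in myeloid barcodes was not called after thinning (0.37, 0.870), and Ly96 in barcodes with little Malat1 was not called with DESeq2 (0.0636), without the low-count filter (0.0978) or without the contaminant filter (0.190). The replicate block changed no call of the 7 genes other than those 3 given in the report. Scaling by total counts moved the median of all genes from -0.05 to -0.25 in immune barcodes and to 0.14 in myeloid against lymphoid barcodes. The share of barcodes with a UMI stayed within the spread between libraries (SD, n = 3) in 129 alternatives and moved beyond it in 60. Leaving out a library cannot move the mean of 3 by more than their SD, and shares change with depth by themselves. The counts therefore do not measure how stable the shares are. Depth limits Tlr4 and Lbp, for which a difference between stromal classes was not detectable.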
